A study of Mus musculus with 2 samples.

Results

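Gene deserts were taken as all 50 kb windows on chromosomes 1 to 19 that lie 500 kb or more, edge to edge, from every protein-coding gene span of the RefSeq annotation of GRCm38. The rule chose 3602 of the 43941 windows listed (8.20%), which cover 180.1 Mb, and it used no measured value. The interactions of each window had been counted by the authors separately on the 129 and the Cas allele of F121-6, a female hybrid mouse embryonic stem (ES) cell line that carries 1 set of chromosomes from each of these strains. All libraries came from this 1 line, grown untreated with serum and LIF on inactivated embryonic fibroblasts, so there is no treated group, and both alleles were read from the same cells. Whether the feeder cells were removed is not stated in the labels, and contact counts carry no marker by which the cell type could be checked. The 2 samples, labelled replicates 1 and 2, are pooled in the deposited columns, and nothing in the labels says that they came from separate cultures. Every window thus has 1 count and 1 distance per allele, and the tests speak of the spread between windows in 1 pooled dataset.

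Gene deserts are long stretches of a chromosome without a coding gene. Many of those known in mammals flank genes that control development or the wiring of neurons, and some hold enhancers that reach a promoter over a long distance. Promoter Capture Hi-C joins pieces of DNA that lie close together in the nucleus and then fishes out, with RNA baits, the joined pieces that hold the end of a HindIII fragment at a promoter. A window can therefore be counted because it holds a baited promoter or because it touched one elsewhere. According to the labels the baits addressed 22225 gene promoters. The sources used here do not say which windows were baited, and no coding gene lies in a desert window.

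Among the non-coding genes in desert windows were 18 microRNA genes in 14 windows, and 8 of the 18 are shown because their windows had among the highest counts of any desert window. The sequences are the mature microRNAs of RefSeq (GRCm38.p6), written 5′ to 3′, with the seed, bases 2 to 8, in capitals. A microRNA guides silencing of messenger RNAs that pair with its seed. Of the Mir344 cluster, 7 genes lay in 3 adjoining windows of chromosome 7, between 61650001 and 61800000, all on the minus strand.
mmu-miR-344d-3p: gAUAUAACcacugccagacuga
mmu-miR-344e-3p: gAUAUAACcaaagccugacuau
mmu-miR-344h-3p: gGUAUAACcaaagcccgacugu
mmu-miR-344b-3p: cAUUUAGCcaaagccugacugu
mmu-miR-344d-1-5p: aGUCAGGCugcuggcuauacacca
mmu-miR-344d-3-5p: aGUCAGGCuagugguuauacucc
mmu-miR-344b-5p: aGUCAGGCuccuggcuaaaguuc
mmu-miR-1952: uCUCCACCcuccuucug
The 3p forms of Mir344d and Mir344e shared a seed, and the 5p forms of Mir344d-1, Mir344d-3 and Mir344b shared another. Mir1952 lies alone on chromosome 2 (window 138800001 to 138850000).

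Another pair of microRNA genes lay within Rmst, a long non-coding RNA (lncRNA) gene expressed in the nervous system, on chromosome 10 between 92050001 and 92150000, minus strand. Their mature forms are shown because the windows that hold them are the only desert windows of a named lncRNA gene with a high count.
mmu-miR-135a-5p: uAUGGCUUuuuauuccuauguga
mmu-miR-135a-2-3p: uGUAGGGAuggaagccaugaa
mmu-miR-1251-5p: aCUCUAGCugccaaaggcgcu
mmu-miR-1251-3p: cGCUUUGCucagccaguguag
The 24 mature names of all 18 genes had 20 different seeds.

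The desert windows lay on all 19 chromosomes, with 26 on chromosome 19 and 371 on chromosome 1. Their gap to the nearest coding gene had a median of 810 kb and reached 2229 kb, and 1209 windows were 1 Mb or more away. Every desert window had a coding gene on both of its sides. The deserts were not free of annotation: 2631 windows held no annotated gene, 445 overlapped an lncRNA gene, 54 a small nuclear RNA (snRNA) gene, 55 a small nucleolar RNA (snoRNA) gene and 14 a microRNA gene, and only 38 were 500 kb or more from any gene. snRNAs are parts of the splicing machinery, and snoRNAs guide chemical changes of ribosomal RNA. The annotation gives immunoglobulin and T cell receptor V segments a biotype of their own, so the rule also took 81 windows within these antigen receptor loci, 43 with Igkv, 28 with Ighv and 9 with Trav segments. These windows are not deserts in the usual sense, and values without them are given where they matter.

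Desert windows had few interactions, and those they had spanned long distances. The median was 176 interactions on 129 (quartiles 119 and 258) and 120 on Cas (78 and 181) per desert window. Windows without a coding gene but nearer than 500 kb to one had medians of 372 on 129 and 263 on Cas, and windows with a coding gene had 1029 on 129 and 756 on Cas. Desert windows held 1.90% of all interactions in the table. The 3567 desert windows with enough interactions on both alleles (at least 10 each) had a median interaction distance of 3944.5 kb on 129 (quartiles 1613 and 7766.5 kb) and 4180 kb on Cas (1639 and 8611 kb). It was 703.5 kb on 129 and 692 kb on Cas in the nearer gene-free windows, and 183 kb on 129 and 187.5 kb on Cas in windows with a coding gene. Medians on 129 were longer in deserts than in the nearer gene-free windows on 19 of 19 chromosomes. Windows are not replicates, so these differences carry no test.

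Both measures changed step by step with the gap. In windows at a gap of up to 50 kb the median count was 519 on 129 and 368 on Cas, and the interactions spanned 344.5 kb on 129 and 349 kb on Cas in the median. At 200 to 350 kb the counts were 302 on 129 and 212 on Cas, with spans of 1195 kb on 129 and 1150.5 kb on Cas. The deserts continued this course: at 500 to 750 kb the counts were 208 on 129 and 139 on Cas, with distances of 2671 kb on 129 and 2789 kb on Cas. At 1000 to 1500 kb the counts were 155 on 129 and 103.5 on Cas, with distances of 5743.5 kb on 129 and 6169 kb on Cas. Beyond 1500 kb, in 299 windows, the counts were 158 on 129 and 109 on Cas, with distances of 5258.5 kb on 129 and 5915 kb on Cas, so neither measure moved further in that direction on either allele. The threshold of 500 kb fell on no step. The 406 windows just inside it, at 500 to 550 kb, had medians of 223 interactions on 129 and 147 on Cas and distances of 2104 kb on 129 and 2422.5 kb on Cas. The 462 windows just outside, at 450 to 500 kb, had 221.5 interactions on 129 and 154.5 on Cas and distances of 1910 kb on 129 and 2155 kb on Cas.

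**Figure D1:**
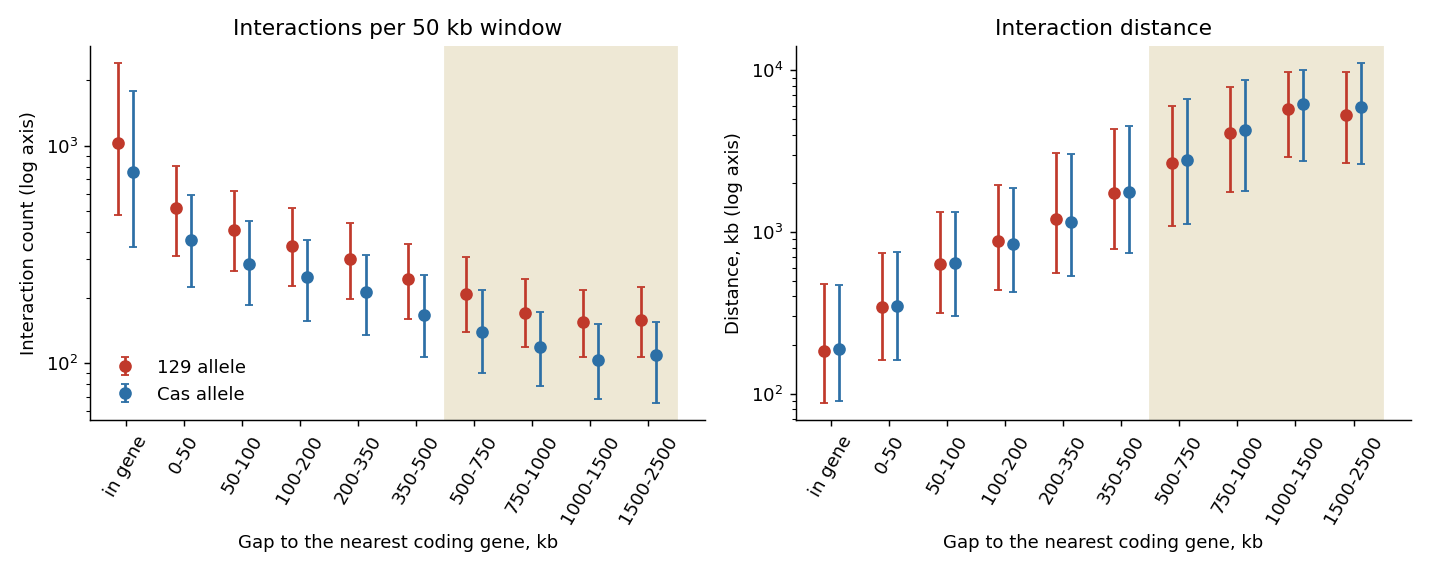
Median interaction count (left) and median interaction distance in kb (right) of 50 kb windows, on log axes, by the gap to the nearest protein-coding gene, for the 129 allele (red) and the Cas allele (blue). Bars span the quartiles over windows, and the shaded bands are the deserts, where the median count on 129 lay between 155 and 208 and the median distance on 129 between 2671 and 5743.5 kb.

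Since distance and count both follow the gap, deserts were also set beside nearer gene-free windows of like count. Between 204 and 439 interactions on both alleles together, 1809 desert windows had median distances of 4727 kb on 129 and 5038.5 kb on Cas. The 3340 nearer gene-free windows in that range had 1662 kb on 129 and 1574 kb on Cas. The longer distances of deserts were thus present at like counts.

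A small number of desert windows went against this picture. Of the 3602, 190 (5.27%) had 1000 or more interactions on both alleles together, and these held 34.7% of all desert interactions. Small RNA genes were frequent among them: 82 of the 190 (43.2%) held an snRNA, snoRNA or microRNA gene, against 41 of the 3412 desert windows with fewer interactions (1.20%). Put the other way, 66.7% of the desert windows with a small RNA gene reached 1000 interactions, against 3.10% of the other desert windows. Of the 25 desert windows with the most interactions, 16 held such a gene. Another 58 of the 190 held no annotated gene. Whether baits lie in these windows was not tested.

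By content, the 120 windows with a small RNA gene outside the antigen receptor loci had medians of 1238 interactions on 129 (quartiles 386.5 and 2189) and 757 on Cas (211 and 1508), and distances of 246.5 kb on 129 and 187 kb on Cas. The 417 windows with an lncRNA gene and no small RNA gene had 228 interactions on 129 and 150 on Cas, at 3069 kb on 129 and 3466 kb on Cas. Windows in which an lncRNA starts, where its promoter would be, had 249 interactions on 129 and 161 on Cas (159 windows), and those that only overlap a body had 218 on 129 and 147 on Cas (258 windows). Windows with a pseudogene or another kind of gene (353) had 178 interactions on 129 and 117 on Cas. The 2631 windows with no annotated gene had 170 on 129 and 116 on Cas, at 4356 kb on 129 and 4531 kb on Cas. The V segment windows were lowest, with 49 on 129 and 26 on Cas. Small RNA genes of both nuclear classes had like values: the 54 snRNA windows had medians of 1301 on 129 and 730.5 on Cas, and the 55 snoRNA windows had 1149 on 129 and 765 on Cas. High counts at such genes were also found outside the deserts: the 663 nearer gene-free windows with a small RNA gene had medians of 1495 on 129 and 1046 on Cas, against 323 on 129 and 224 on Cas in the 7808 nearer windows with no annotated gene.

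**Figure D2:**
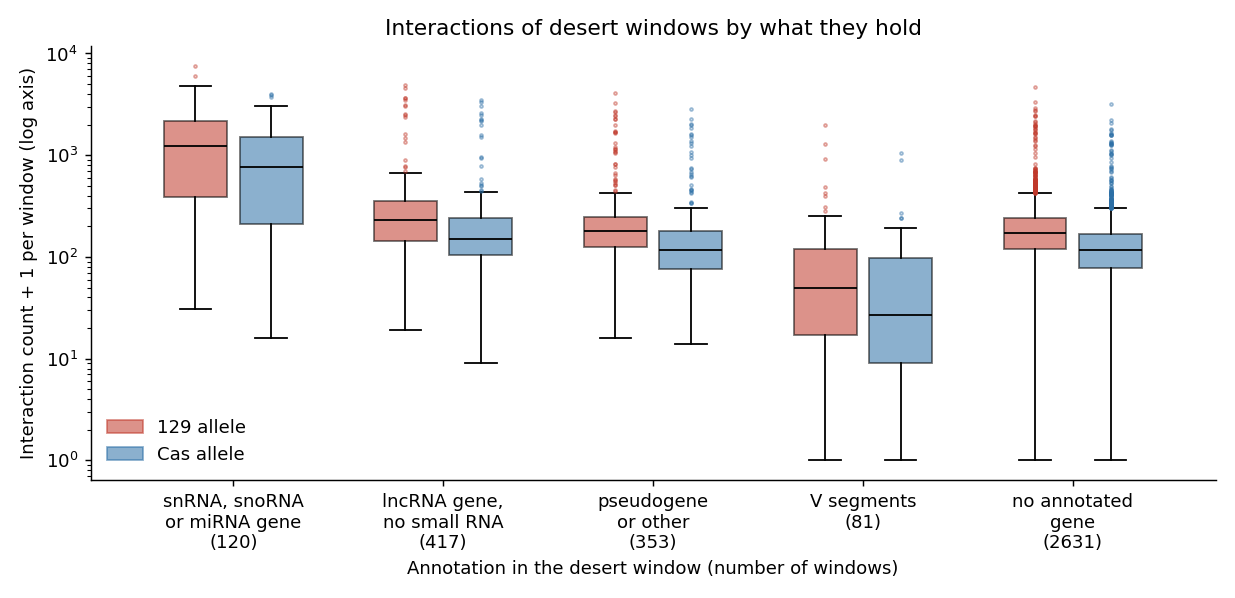
Interaction counts plus 1 of desert windows, on a log axis, by the annotation in the window, for the 129 allele (red) and the Cas allele (blue); boxes span the quartiles with the median as a line, whiskers reach 1.5 times the box and dots lie beyond. Windows with an snRNA, snoRNA or microRNA gene had a median of 1238 on 129, and windows with no annotated gene had 170.

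In the median profile the high count stood in the central window, with a smaller excess in the windows before it. In the median over windows with a small RNA gene, the window before had 267 interactions on 129 and 182 on Cas, and the window after had 207 on 129 and 139 on Cas. Windows next to one with no annotated gene had 170 on 129 and 116 on Cas before it. Farther before a small RNA window the medians were 249 on 129 and 149 on Cas at 100 kb, and 225 on 129 and 150 on Cas at 300 kb. Before a window with no annotated gene they were 168 on 129 and 116 on Cas at 100 kb, and 161 on 129 and 110 on Cas at 300 kb. At 300 kb after a small RNA window they were 180.5 on 129 and 126.5 on Cas. Single places were wider: the 3 Mir344 windows adjoin, and so do both Rmst windows. At 500 kb to either side the medians were 191 on 129 and 129 on Cas before, and 158.5 on 129 and 98.5 on Cas after. The interaction distance reached lower over a wider stretch: it was 942 kb on 129 and 933 kb on Cas in the window before, and 1220 kb on 129 and 1536 kb on Cas in the window after. Set against the median of desert windows 100 to 250 kb away, a window with a small RNA gene had 5.77 times as many interactions in the median (quartiles 1.91 and 8.86, 104 windows), and 69 of the 104 had 3 times as many or more. The same ratio was 0.98 for 382 windows with an lncRNA gene and 0.99 for 2490 windows with no annotated gene, of which 42 reached 3 times. The 35 small RNA windows with under 1000 interactions had a median ratio of 1.12, but they were picked by the same count that enters the ratio.

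**Figure D3:**
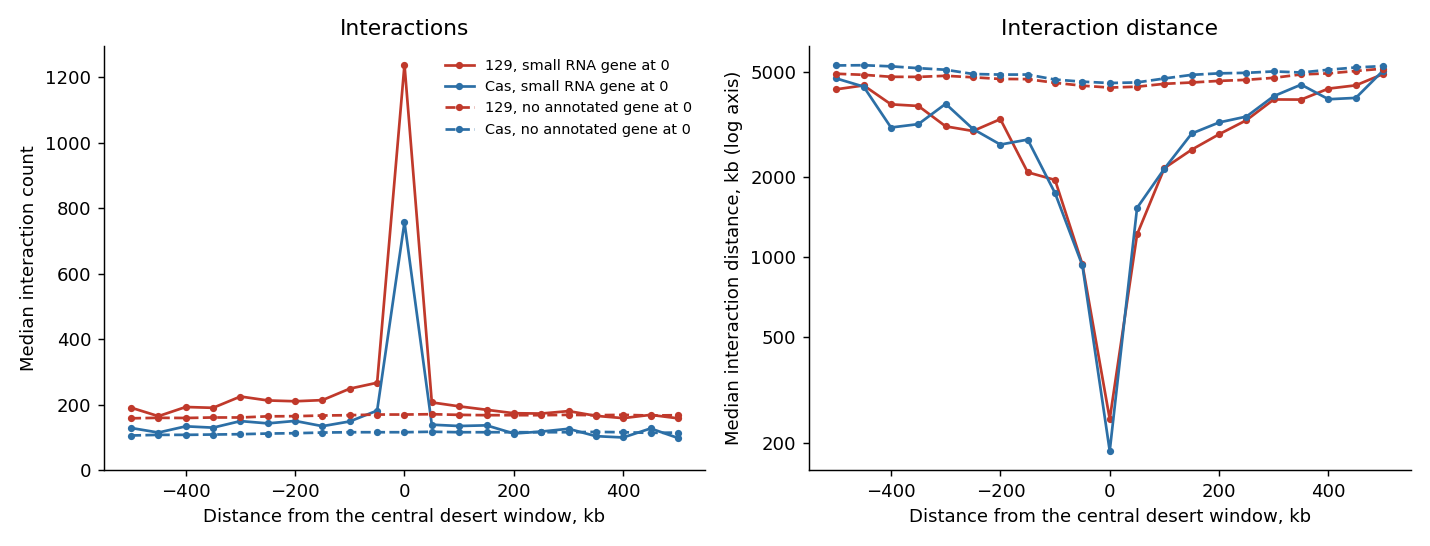
Median interaction count (left, linear axis) and median interaction distance in kb (right, log axis) of desert windows at each distance in kb from a central desert window, for central windows with a small RNA gene (solid) or no annotated gene (dashed), on the 129 allele (red) and the Cas allele (blue). The small RNA windows stand at 1238 on 129 and 757 on Cas at 0 and at 267 on 129 and 182 on Cas in the window before, and their distances stay below the dashed lines over a wider stretch.

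The microRNA windows showed both sides of this. The window of Mir344d-1 and Mir344d-2 had the most interactions of all desert windows, 7590 on 129 and 3878 on Cas, at distances of 39 kb on 129 and 37 kb on Cas. It lies between Gm51483 and Ndn, an imprinted gene of the region tied to Prader-Willi syndrome in humans, whose span begins 648 kb away. The next window, with Mir344d-3, Mir344e, Mir344h-1 and Mir344h-2, had 3661 on 129 and 2539 on Cas, and the one after it, with Mir344b, had 4279 on 129 and 1869 on Cas. The 129 share was 66.2%, 59.0% and 69.6% in the 3 windows, and none was called unequal (beta-binomial test, lowest adjusted p = 0.733). The Rmst window with Mir135a-2 had 3940 on 129 and 3703 on Cas, at 57.5 kb on 129 and 41 kb on Cas, and the one with Mir1251 had 2756 on 129 and 1927 on Cas. The Mir1952 window had 3666 on 129 and 2585 on Cas. The other 8 microRNA windows, with Mir6350, Mir6343, Mir6370, Mir6238, Mir8099-2, Mir7094-1, Mir7094-2 and Mir3961, were low: the Mir6350 window had the most, 223 on 129 and 180 on Cas, and the Mir7094-2 window, among the Ighv segments, the fewest, 20 on 129 and 32 on Cas. A microRNA gene in the window was thus not enough for a high count.

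The gap itself gives a yardstick for the distance, because a contact with the promoter of a coding gene cannot be shorter than the gap. In 3019 of 3567 desert windows the distance was at or above the gap on both alleles, and in the median it was 4.47 times the gap on 129 and 4.69 times on Cas. In 343 windows (9.62%) it was below the gap on both alleles, with median distances of 187 kb on 129 and 153 kb on Cas, and in 205 it was below on 1 allele. The sources used here do not say whether the deposited distance is a mean or a median over interactions, so a window below the gap holds at least some contacts that reached no coding gene. The 343 windows had medians of 565 interactions on 129 and 375 on Cas. The 3019 windows at or above the gap on both alleles had 168 on 129 and 115 on Cas. Of the 343, 87 (25.4%) held a small RNA gene, against 1.12% of the rest of the 3567 windows, and 168 held no annotated gene. At the other end, 337 desert windows had distances over 10 Mb on both alleles.

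The same 5 windows had the most interactions of all desert windows and of those below the gap. After the Mir344d window came 1 on chromosome 5 (54800001 to 54850000), in the desert between Stim2, a sensor of calcium stores, and Pcdh7, a protocadherin of cell adhesion, with 5978 on 129 and 4011 on Cas, and it spanned 159 kb on 129 and 81 kb on Cas. It holds a snoRNA gene and had 21.1 times the interactions of the desert windows around it. A window on chromosome 12 (46000001 to 46050000) between Stxbp6 and Nova1, an RNA-binding protein of neurons, overlaps an lncRNA gene and had 4873 on 129 and 3484 on Cas. A window on chromosome 3 (16800001 to 16850000) between Ythdf3, a reader of RNA methylation, and Cypt12 overlaps an lncRNA gene and a pseudogene and had 4548 on 129 and 3323 on Cas at 36 kb on 129 and 40.5 kb on Cas. Last came one of chromosome 8 (96500001 to 96550000) between Got2, a mitochondrial transaminase, and Cdh8, a cadherin of neurons, had 4643 on 129 and 3158 on Cas at 172 kb on 129 and 89 kb on Cas, 12.7 times the windows around it, and holds no annotated gene. In all 5 the alleles were both high, with 129 shares between 57.8% and 66.2%.

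The promoters of lncRNAs in the deserts were compared by letters alone, since baits were laid at HindIII fragment ends. RefSeq gives 201 promoters, 250 bases before to 50 after the start, for 179 lncRNA genes that start in desert windows. Their median GC content was 42% and they had a median of 2 CpG pairs, against 48.3% and 4 in the 11311 lncRNA promoters of these chromosomes and 53% and 7 in all 31396 promoters of the table. The HindIII motif AAGCTT, which reads alike on both strands, was in 21 of the 201 (10.4%), against 8.95% of all lncRNA promoters and 7.44% of all promoters. The promoter of Gm12665 is shown because it holds the motif at 2 places, in capitals, and its window (24900001 to 24950000 of chromosome 11) held 3012 on 129 and 2239 on Cas, at 64 kb on 129 and 35 kb on Cas; it was chosen after its values were seen. The stretch is chr11:24926010-24926309 of GRCm38.p6, minus strand.
Gm12665 promoter: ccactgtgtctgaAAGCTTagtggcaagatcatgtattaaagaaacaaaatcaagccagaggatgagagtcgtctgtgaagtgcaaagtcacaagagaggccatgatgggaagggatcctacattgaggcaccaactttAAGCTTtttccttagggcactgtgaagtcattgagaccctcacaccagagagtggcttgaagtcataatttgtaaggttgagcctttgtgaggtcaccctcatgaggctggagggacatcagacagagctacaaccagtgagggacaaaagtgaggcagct

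Other genes with a proper name in the deserts were mostly pseudogenes, copies that no longer code for a protein. Their counts were not compared with those of the windows around them. Rpl23a-ps5, on chromosome 3, stood above the rest with 1552 interactions on 129 and 1052 on Cas. Pomc-ps1, a pseudogene of the hormone precursor gene Pomc on chromosome 19, had 229 on 129 and 142 on Cas, with distances of 43 kb on 129 and 625 kb on Cas. Amd-ps2, in a window of the Igk locus, leaned to 129 with 483 on 129 and 170 on Cas. Tspyl-ps leaned to Cas with 73 on 129 and 127 on Cas, but neither passed the test (beta-binomial test, adjusted p = 0.439 and p = 0.908). Rprl1, annotated as an RNase P RNA and also in a window of the Igk locus, had 160 on 129 and 122 on Cas.

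In the allelic comparison the deserts leaned to 129 somewhat more than the rest. Of the interactions in desert windows, 1000002 were on 129 and 677337 on Cas, a 129 share of 59.6% (exact 95% interval 59.5 to 59.7%). The share was 58.1% in nearer gene-free windows, 57.4% in windows with a coding gene and 57.6% in all windows together. The interval covers counting error only. How reads were given to an allele is not known here, so the share was read against that of all windows and not against equality. The ratio of a window, log2 of 129 over Cas with 1 added to each, minus the median over all windows, had a median of 0.10 in deserts (SD 0.59), 0.03 in nearer gene-free windows (SD 0.50) and -0.02 in windows with a coding gene (SD 0.41). It was above 0 in 59.0% of desert windows, 53.3% of nearer gene-free windows and 46.8% of windows with a coding gene. The share of deserts was above that of nearer gene-free windows on 19 of 19 chromosomes, but on 3 of these, chromosomes 8, 17 and 18, by under 0.01 percentage points, and on 4 the value of the nearer windows lay within the exact 95% interval of the deserts. It was above that of all other windows on 18 of 19. The exception was chromosome 18, with 56.4% in deserts and 56.5% in the other windows. The 38 desert windows that were also 500 kb or more from genes of any other kind had a share of 56.4%, below that of all windows. The median ratio of these 38 windows was 0.0455, above 0, so the measures differed in direction. The largest gaps were on chromosome 16, with 62.7% in deserts against 57.8%, and on chromosome 14, with 59.5% against 55.2%.

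The share also moves with the count, so like counts were compared. In the lowest of 5 equal bins of the count, 10 to 421 interactions, which holds 2618 of the desert windows, the 129 share was 59.6% in deserts, 59.3% in nearer gene-free windows and 58.7% in windows with a coding gene. Between 204 and 439 interactions it was 59.4% in deserts (exact 95% interval 59.3 to 59.5%) and 59.2% in nearer gene-free windows (59.1 to 59.3%). Set at like counts, the lead of deserts over nearer gene-free windows was thus narrower than over all counts. It was wider among windows of high count: in the fourth bin, from 1330 to 3496 interactions, 87 desert windows had 60.2% and nearer gene-free windows 57.7%. Small RNA windows make up part of these: their share was 60.8%, against 59.4% in windows with no annotated gene and 58.6% in those with an lncRNA gene. The median ratios of these classes were nearly alike, at 0.11, 0.10 and 0.10 in the same order. Of the 120 small RNA windows, 8 were called towards 129 and 1 towards Cas by the test given below, and their counts enter the pooled share. The V segment windows stood at 63.2% with a wide spread of the ratio (quartiles -0.45 and 1.02, against -0.21 and 0.43 in windows with no annotated gene). The loci differed, with 65.5% in the 44 windows of the Igk locus and 50.1% in the 28 Ighv windows.

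Of 3592 desert windows with 10 or more interactions, 19 were called unequal by a two-sided beta-binomial test with overdispersion fitted by count bin and Benjamini-Hochberg adjustment at 0.05 over all 43762 windows tested. That is 0.529% of desert windows, beside 0.784% of all windows tested. Of the 19, 15 were higher on 129 (0.418% of desert windows, beside 0.633% of all windows tested). The other 4 were higher on Cas (0.111%, beside 0.151%). A difference of 2-fold or more after centring, with no test, was seen in 298 desert windows (8.27%), beside 3.41% of all windows. Towards 129 there were 213 (5.91%, beside 2.45%) and towards Cas 85 (2.36%, beside 0.965%). With a single overdispersion for all counts 52 desert windows were called (1.45%, beside 0.944% of all windows). The exact binomial test, which allows for counting error only, called 1568 (43.7%, beside 51.4%). Whether deserts were called less or more often than all windows thus depended on how the overdispersion was fitted. Low counts spread more: the fitted SD of the 129 share between windows was 9.07 percentage points in the lowest bin of the count and 5.33 in the highest, and most desert windows lie in the lowest. Within that bin 2 of 2618 desert windows were called (0.0764%), against 0.650% of nearer gene-free windows and 0.703% of windows with a coding gene. The calls were spread unevenly by content and count. Of the 19 windows, 10 held a small RNA gene, 6 held no annotated gene, 2 held Igkv segments, 1 of which also held a small RNA gene, and 13 had 1000 or more interactions. Among windows with 1000 or more interactions, 13 of 190 desert windows were called (6.84%), 9 of the 82 with a small RNA gene among them, beside 1.24% of all 21556 such windows and 3.30% of the 485 nearer gene-free windows with a small RNA gene. No test of these differences was made.

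**Figure D4:**
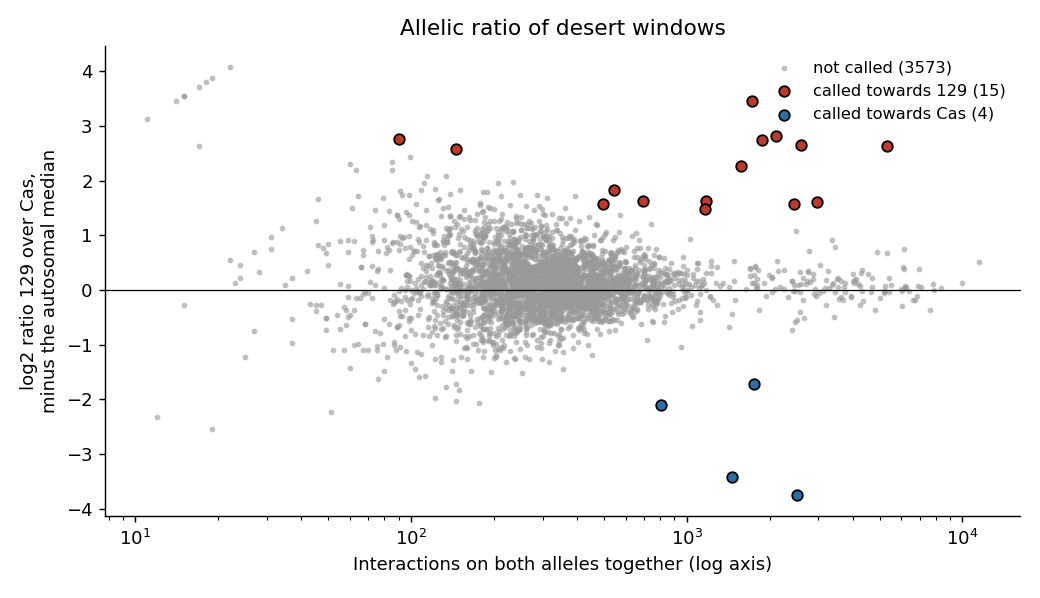
Log2 ratio of 129 over Cas minus the autosomal median (vertical axis) against the interactions on both alleles together (log axis) for the 3592 desert windows tested. Coloured points are the 15 windows called towards 129 and the 4 called towards Cas, 13 of which had 1000 or more interactions; grey points fan out at low counts.

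The widest called difference towards 129 was on chromosome 8 (50550001 to 50600000), in the desert between Tenm3, a teneurin that guides neuronal connections, and Aga, a lysosomal enzyme. This window, which overlaps an snRNA gene and an lncRNA gene, had 1614 interactions on 129 and 106 on Cas (log2 ratio 3.46, beta-binomial adjusted p = 9.84e-11). The distance of its interactions was 132 kb on 129, against 10905 kb on Cas. The window before it had 374 on 129 and 133 on Cas, and the one after had 115 on 129 and 77 on Cas. The high count was thus present on 129, while the count on Cas lay between those of the adjoining windows.

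Chromosome 16 had 3 called windows between Alcam, an adhesion molecule, and Zpld1. The first (54350001 to 54400000) holds a snoRNA gene and had 1903 on 129 and 197 on Cas (log2 ratio 2.81, beta-binomial adjusted p = 1.42e-07). Another window of this desert (54600001 to 54650000) holds a pseudogene and had 1694 on 129 and 183 on Cas (log2 ratio 2.75, beta-binomial adjusted p = 3.12e-07), at 276 kb on 129 and 2102 kb on Cas. The third adjoins the first and had 453 on 129 and 92 on Cas.

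Chromosome 10 had 4 called windows. The one with the most interactions (46350001 to 46400000) lies between Hace1, a ubiquitin ligase, and Grik2, a kainate receptor subunit. It holds an snRNA gene and had 4742 on 129 and 561 on Cas (log2 ratio 2.62, beta-binomial adjusted p = 2.04e-10), at 161 kb on 129 and 279.5 kb on Cas, 21.9 times the interactions of the desert windows around it. In the same desert a window of low count (47450001 to 47500000) had 82 on 129 and 8 on Cas (log2 ratio 2.75, beta-binomial adjusted p = 0.0274), which rests on few interactions. Between Man1a, a mannosidase of the Golgi, and Tbc1d32, a window with an snRNA gene (54700001 to 54750000) had 2317 on 129 and 270 on Cas (log2 ratio 2.64, beta-binomial adjusted p = 7.47e-07).

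Towards Cas the widest difference was on chromosome 18 (72900001 to 72950000), between Dcc, a netrin receptor, and Mex3c, in a window that overlaps an lncRNA gene, with 232 on 129 and 2282 on Cas (log2 ratio -3.74, beta-binomial adjusted p = 2.4e-15) and distances of 942 kb on 129 and 103 kb on Cas. On chromosome 15 (17550001 to 17600000), between the cadherin genes Cdh9 and Cdh10, a window with no annotated gene had 166 on 129 and 1296 on Cas (log2 ratio -3.41, beta-binomial adjusted p = 1.28e-12). On chromosome 13 (87450001 to 87500000), between Cox7c, a subunit of the respiratory chain, and Edil3, a window with no annotated gene had 194 on 129 and 611 on Cas (log2 ratio -2.10, beta-binomial adjusted p = 3.69e-07). On chromosome 8 (89550001 to 89600000), between the transcription factor gene Sall1 and Tox3, a window with an snRNA gene had 516 on 129 and 1235 on Cas (log2 ratio -1.71, beta-binomial adjusted p = 0.00343).

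In 17 of the 19 called windows the allele with more interactions also had the shorter distance, 14 of 15 called towards 129 and 3 of 4 called towards Cas. The count and the distance come from the same interactions, so these are not separate measurements. Of the 38 windows that adjoin a called one, 30 had a ratio on the same side of 0. The adjoining called windows of chromosome 16 are counted here as each other's neighbours. Over all desert windows 59.0% had a ratio above 0. In 11 of the 19 cases both adjoining windows were within 2-fold of the autosomal median. Over all adjoining pairs of desert windows the ratios correlated weakly (Pearson r = 0.21, Spearman rho = 0.14, 3313 pairs that share libraries and neighbours), and r was 0.24 in nearer gene-free windows.

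The distances of the alleles were alike in the median over all desert windows, but not at high counts or in single windows. The log2 ratio of the distances, 129 over Cas, had a median of -0.02 and an SD of 1.21, against 0.89 over all windows. By count bin, from lowest to highest, the desert median was -0.03, -0.02, 0.04, 0.11 and 0.35. In nearer gene-free windows it lay between 0 and 0.004 in every bin. The highest bin held 62 desert windows, and this difference was not tested. In small RNA windows the median was 0.14 in deserts and 0.02 in nearer gene-free windows. The distance was longer on 129 in 1711 desert windows and longer on Cas in 1841. It differed 2-fold or more in 30.3% of desert windows, 21.4% of nearer gene-free windows and 17.1% of all windows. Counts were lower in deserts, and whether this accounts for the wider differences was not tested. In desert windows with 1000 or more interactions the SD of the log2 ratio of the distances was 1.09. Most of the windows with the widest differences adjoined a window of high count. On chromosome 10 (46300001 to 46350000), the window beside the called snRNA window of the Hace1 to Grik2 desert had distances of 52 kb on 129 and 16550 kb on Cas. On chromosome 15 (17500001 to 17550000), beside the called window between Cdh9 and Cdh10, those were 12464 kb on 129, against 95 kb on Cas. Distances of 57 kb on 129 against 5988 kb on Cas stood on chromosome 1 (113650001 to 113700000) between Dsel and Cntnap5a, where the window after had 2152 interactions on 129 and 1360 on Cas. They were 53 kb on 129 and 4381 kb on Cas on chromosome 17 (60500001 to 60550000) between Nudt12 and Efna5, an ephrin, where the window before had 2186 on 129 and 1535 on Cas. They were 3235 kb on 129 and 46 kb on Cas on chromosome 4 (79250001 to 79300000) between Ptprd, a receptor phosphatase of synapses, and Tyrp1, where the window before had 1308 on 129 and 941 on Cas. They were 4679 kb on 129 and 74.5 kb on Cas on chromosome 5 (78700001 to 78750000) between Igfbp7 and Adgrl3, a latrophilin, and the window after had 2061 on 129 and 1190 on Cas. On chromosome 8 (6250001 to 6300000) between Slc10a2 and Efnb2 the interactions spanned 1758 kb on 129 and 59 kb on Cas.

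The desert windows formed 272 runs of adjoining windows, each taken as 1 desert, 36 of them of a single window. These runs lay between 217 pairs of coding genes, because a run also ends where a window is not listed. A stretch between neighbouring coding genes can thus hold several runs, and the numbers and lengths of deserts given here are those of runs. The stretch between Pcdh20 and Pcdh9 was split into runs of 21, 2, 33 and 3 windows, none of them among the 10 longest. The median desert had 7 windows, and 64.8% of the windows lay in the 64 deserts of 20 or more. The longest, on chromosome 18 between Celf4, an RNA-binding protein, and Pik3c3, a lipid kinase of autophagy, had 69 windows (3.45 Mb) with 15040 interactions on 129, against 10645 on Cas (58.6% on 129). The next, on chromosome 14 between Olfm4 and Pcdh17, had 67 windows with 12492 on 129 and 7668 on Cas (62.0%). The third, on chromosome 1 between Cntnap5b, a contactin-associated protein, and Cdh20, had 65 windows with 15175 on 129 and 9013 on Cas (62.7%). The other 7 of the 10 longest were those of Tenm3 and Aga (59 windows, 60.7%), Slc39a10 and Tmeff2 (59 windows, 59.1%), Pcdh7 and G6pd2 (52 windows, 62.7%), Stim2 and Pcdh7 (51 windows, 61.3%), Igfbp7 and Adgrl3 (51 windows, 60.5%), Nudt12 and Efna5 (51 windows, 60.7%), and Dsel and Cntnap5a (51 windows, 59.3%). All 10 had a 129 share above that of all windows. Among 155 deserts with 5 or more windows and 1000 or more interactions, 116 did, and the share had a median of 59.3% (quartiles 57.5 and 61.8%) and ran between 39.6% and 74.5%. The window farthest from any coding gene, 2229 kb away on chromosome 14 (90700001 to 90750000) between the protocadherin genes Pcdh20 and Pcdh9, had 191 on 129 and 81 on Cas at 2596 kb on 129 and 2609 kb on Cas.

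The genes at the edges of the deserts were named by family. Of the 404 coding genes that flank a desert, 46 (11.4%) belonged to a list of adhesion and synapse families, such as Cdh, Pcdh, Slitrk, Tenm and Cntn, beside 0.881% of all 20665 coding genes. A short list of transcription factor families, such as Sox, Pou, Nr2f, Irx and Zic, gave 13 (3.22%), beside 0.789%. This is no count of all transcription factors, since genes such as Sall1 belong to no family of the list. The 13 included Sox2, a factor of the pluripotent state, Pou3f2, which acts in neurons, and Zic1. None was an olfactory, vomeronasal or trace amine receptor gene, a group that makes up 7.12% of all coding genes and lies mostly in dense clusters. These shares describe the annotation and use no contact value. Among desert windows flanked by such genes, the 103 beside Pcdh7 had 30630 interactions on 129 and 18961 on Cas (61.8%). The 85 beside Cdh8 had 32425 on 129 and 24282 on Cas (57.2%). The 23 beside Bcl11a, a zinc finger factor of neurons and blood cells, had 29340 on 129 and 20179 on Cas (59.2%), more per window than beside Pcdh7 or Cdh8.

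Among the 155 deserts with 5 or more windows and 1000 or more interactions, the highest 129 shares were on chromosome 10. The desert between Man1a and Tbc1d32 (18 windows) had 5351 on 129 and 1836 on Cas, a share of 74.5%, which was 66.0% without the window of highest count. The desert between Hace1 and Grik2 (46 windows) had 13181 on 129 and 4682 on Cas, a share of 73.8%, which was 67.2% without that window, and 42 of its 46 windows had a ratio above 0. Chromosome 10 as a whole leaned to 129, with 62.2% in its nearer gene-free windows and a median ratio of 0.29 there. Above that median were 34 of the 46 windows of the Hace1 to Grik2 desert and 11 of the 18 of the Man1a to Tbc1d32 desert. Without its called windows the Hace1 to Grik2 desert had a share of 67.0%, and the Man1a to Tbc1d32 desert 66.0%. The desert between Ptbp2, a splicing regulator, and Rwdd3 on chromosome 3 (7 windows) had 71.3%, and 62.7% without its top window. The one between Slc8a1, a sodium-calcium exchanger, and Pkdcc on chromosome 17 (9 windows) had 67.4%, and 68.8% without it. The lowest share of these 155 was in the desert between Cdh9 and Cdh10 on chromosome 15 (13 windows), with 2462 on 129 and 3756 on Cas, 39.6%, and 11 of 13 windows were below 0. Without the called window it was 48.3%, with 2296 on 129 and 2460 on Cas, against 57.0% in the nearer gene-free windows of chromosome 15. Without its window of highest count, which had 1177 on 129 and 1290 on Cas, it was 34.3%. In the desert between Slitrk1 and Slitrk6, genes of synapse formation, on chromosome 14 (15 windows), 2747 interactions were on 129 and 3218 on Cas, 46.1%, and all 15 windows were below 0, though none was called. Chromosome 14 leaned to Cas relative to all windows, with a median ratio of -0.12 in its nearer gene-free windows, and 14 of the 15 were below that median. The Ighv windows between Adam6a and Zfp386 on chromosome 12 (28 windows) had 1200 on 129 and 1193 on Cas, 50.1%. A desert between Slc10a2 and Efnb2 on chromosome 8 (11 windows) had 1571 on 129 and 1491 on Cas, 51.3%, with 9 of its 11 windows below the median of -0.11 in the nearer gene-free windows of that chromosome. Other runs between the same genes had shares of 57.1% (4 windows) and 51.7% (30 windows). These deserts were picked for their shares, so the shares are a description.

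**Figure D5:**
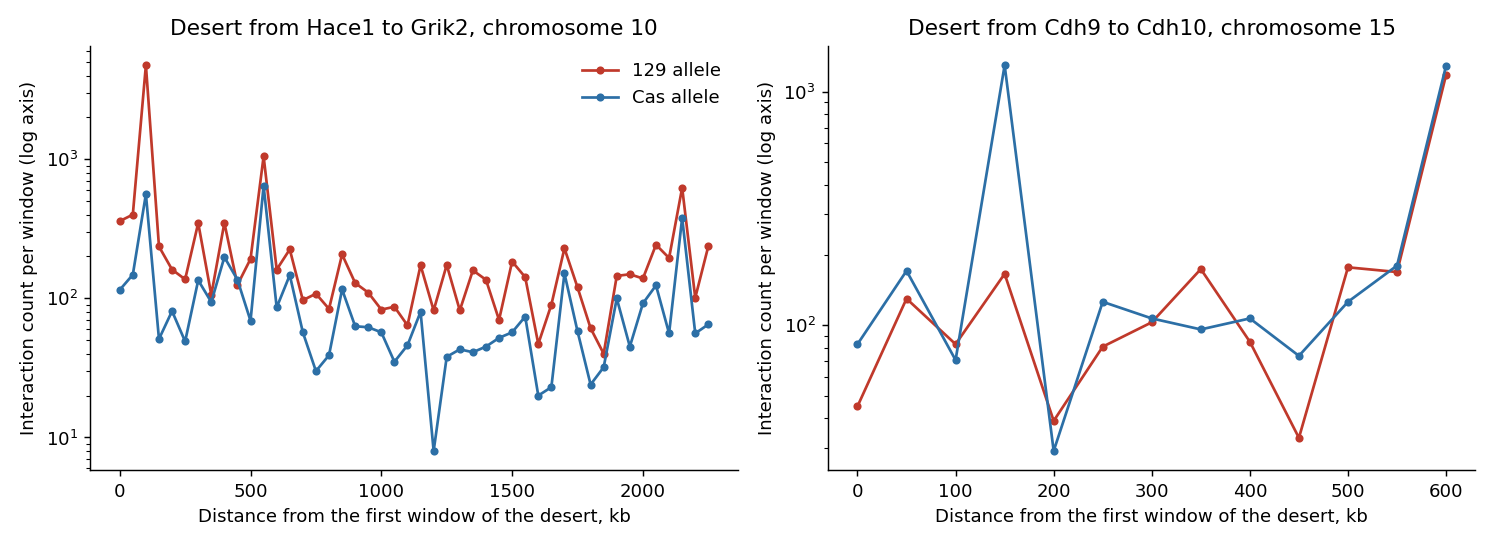
Interactions per 50 kb window on the 129 allele (red) and the Cas allele (blue), on a log axis, along the desert between Hace1 and Grik2 (left) and the desert between Cdh9 and Cdh10 (right), by distance in kb from the first window. On the left 129 is above Cas in nearly all windows, with a peak of 4742 against 561; on the right Cas peaks alone at 1296 against 166.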

How the data were processed

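Promoter Capture Hi-C was measured in 2 samples of F121-6 ES cells. The authors deposited whole-number interaction counts, not normalised, and an interaction distance, taken to be in bp, for each allele in windows of 50 kb. Bowtie2 and mm10 are named per the submitters' processing notes. The sources used here do not give the assignment of reads to alleles, the filters, the merging of samples or what the distance summarises. The descriptions of both samples list the same columns, which were therefore read as pooled values. Window starts were raised by 1.

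The rule was applied with RefSeq gene spans of GRCm38.p6, with 20665 coding genes. Shares have exact Clopper-Pearson 95% intervals, which cover counting error only, since reads are not independent molecules. A two-sided beta-binomial test was run on windows that had at least 10 interactions, against the autosomal 129 share (57.57%), with overdispersion fitted in 5 equal bins of the summed count over all windows, which ranged between 0.0114 and 0.0337. Desert windows had between 0 and 11468 interactions, 10 were not tested, 10 had counts on 129 only, 1 had counts on Cas only and 1 had none. The test was tested on simulated data. Distances were used at 10 or more interactions per allele.

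The members and lists were chosen with earlier results of these data known. Named were the 6 called windows per direction with the largest ratio at 50 or more interactions, the 5 with the highest count, also among those below the gap, the 4 per direction whose distances differed most between the alleles, the farthest window, the 10 longest deserts, the 4 per direction with the most extreme share, and non-coding genes with a name other than a model or clone number. Alternatives were other gaps, minimums, thresholds, null shares, overdispersions and subsets. Computation used scipy 1.17.1, numba 0.67.0, numpy 2.4.6, pandas 2.3.3 and matplotlib 3.10.9 under Python 3.11.15.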

Additional observations from a re-analysis of the deposited data

How the results depend on the processing

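No paired analysis was possible because the deposited columns carry no replicate. For the same reason no sample could be left out. Each chromosome was left out in turn instead: the 129 share then ran between 59.4 and 59.9%, the median summed count between 294 and 306, the median distance over both alleles between 3831.5 and 4203 kb, the called windows between 15 and 19, the median ratio between 0.09 and 0.11, the median log2 distance ratio between -0.03 and -0.01, and the windows below the gap on both alleles between 311 and 341. The values over all deserts were 59.6%, 299, 4037.5 kb, 19 called, 0.10, -0.02 and 343. With a gap of 250 kb they were 59.0%, 357, 2532 kb, 40 called (0.583% of 6856 windows) and 633 below the gap. With a gap of 1 Mb they were 59.8%, 260, 5834 kb, 4 called (0.331% of 1209 windows) and 94 below. Among all windows tested, 0.784% were called. With genes of any biotype as the limit, which leaves 38 windows, they were 56.4%, 202, 10604.5 kb, 0 called by the beta-binomial test (2 had an unadjusted p under 0.05, a single overdispersion called 0 and the exact binomial test 13), a ratio of 0.0455, a distance ratio of -0.33 and 1 below the gap. A single overdispersion called 52 desert windows (1.45%, beside 0.944% of all windows). The exact binomial test, which takes counting error as the only spread, called 1568 (43.7%, beside 51.4%). At 50 or more interactions per allele the distance was 3830.5 kb. Below the gap on at least 1 allele were 548. Between the quartiles of the count the share was 59.4% and the distance 4839.5 kb. Without windows of small RNA genes, added after seeing the data, the share was 59.3% and the distance 4231 kb. Of the 3479 windows left, 9 were called (0.259%). Without V segment windows, also added after seeing the data, 17 were called (0.483% of 3521). Leaving out windows beyond the first or last coding gene removed none. The 129 share of deserts was above that of all windows (57.6%) in every alternative listed here except with genes of any biotype as the limit, where it was below. Most desert windows lie in the bin of lowest count, where the fitted spread between windows was widest (SD of 9.07 percentage points). Why fewer desert windows than other windows of that bin were called was not tested.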
